A study of Rattus norvegicus with 25 samples.

Results

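The genes described here mark astrocytes or change when astrocytes become reactive after injury. They were taken by symbol from a list of 37, of which 35 were found among the 28909 gene names of the deposited count table, and all 35 passed the filter on low counts. Serpina3n and Gpc5 were not analysed here. RNA had been taken from the homogenised striatum on the lesioned side of 25 female Sprague Dawley rats with a lesion made by 6-hydroxydopamine (6-OHDA), a toxin that destroys dopamine neurons and is used to model Parkinson's disease. For 14 days the rats received 6 mg/kg of levodopa once a day, by itself (n = 5) or together with trapidil given 2 times a day at 7.5 mg/kg (n = 10) or 15 mg/kg (n = 10). Tissue was taken on day 15, at a collection time given as 1 hour for every animal. Every animal carried the lesion and received levodopa, so all values describe lesioned, levodopa-treated striatum, and no arm without the lesion or without levodopa was analysed here. The sources used here give neither the animals' age nor the extent of the lesion.

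Astrocytes take up glutamate and GABA from synapses, buffer potassium and water through channels concentrated at their endfeet, couple to each other by gap junctions, make glutamine and supply lipids in apolipoprotein particles. After injury they become reactive: they enlarge, build up the intermediate filament proteins GFAP and vimentin, and secrete matrix and inhibitor proteins. Signals of the interleukin-6 family acting through STAT3 are a known driver of that state. Trapidil blocks signalling by platelet-derived growth factor and inhibits phosphodiesterases. Several of the genes are shared with other cells (Apoe with microglia, Vim with ependymal and vessel cells, S100b with oligodendrocytes), and in bulk tissue fewer cells of a type and less RNA per cell cannot be told apart.

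Library totals ran from 10838513 to 20532290 counts. The 35 genes took between 1.47% and 2.40% of the counts in the levodopa arm, between 1.35% and 1.76% at 7.5 mg/kg and between 1.20% and 1.58% at 15 mg/kg. Levels are given as CPM, counts scaled to a common library total by edgeR's TMM factors, which does not correct for transcript length, so levels are compared between libraries and not between genes. The labels give 25 animals and as many libraries, in the same numbers per arm, and each library was taken as 1 animal; no label ties a library to an animal by name. A striatal origin was checked on 13 markers of striatal projection neurons, whose summed level lay between 9634 and 17167 CPM. None of these markers was at 0 in all libraries of an arm.

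One control library stood apart for most of these genes. Levodopa replicate 2 held the highest value of its arm for 32 of the 35 genes and the highest of all 25 libraries for 23. Its level was a median of 1.59 times that of the other levodopa libraries, from 0.97 times for Slc4a4 to 2.91 times for Gfap. Slc4a4 and S100a10 were highest in replicate 5 and Timp1 in replicate 1. This library also had the highest mitochondrial share, 17.3% of counts against 7.62% to 12.9% in the rest of its arm. Summed markers of other cells were higher in it too, at 1.59 times the other levodopa libraries for oligodendrocytes, 1.70 times for endothelial cells, 1.67 times for microglia and 2.10 times for ependymal cells. The sum of the striatal projection neuron markers was 0.618 times theirs. The part of cell composition in these values was not tested.

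The spread of the levodopa arm followed that library. The coefficient of variation had a median of 27.3% over the 35 genes in the levodopa arm and 11.2% without replicate 2. The medians were 14.9% at 7.5 mg/kg and 11.3% at 15 mg/kg. In the treated arms, 7.5 mg/kg replicates 1 and 6 held the highest value of their arm for 14 and 8 genes, 15 mg/kg replicate 10 for 11 genes, and 15 mg/kg replicate 3 the lowest of its arm for 17 genes.

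**Figure D1:**
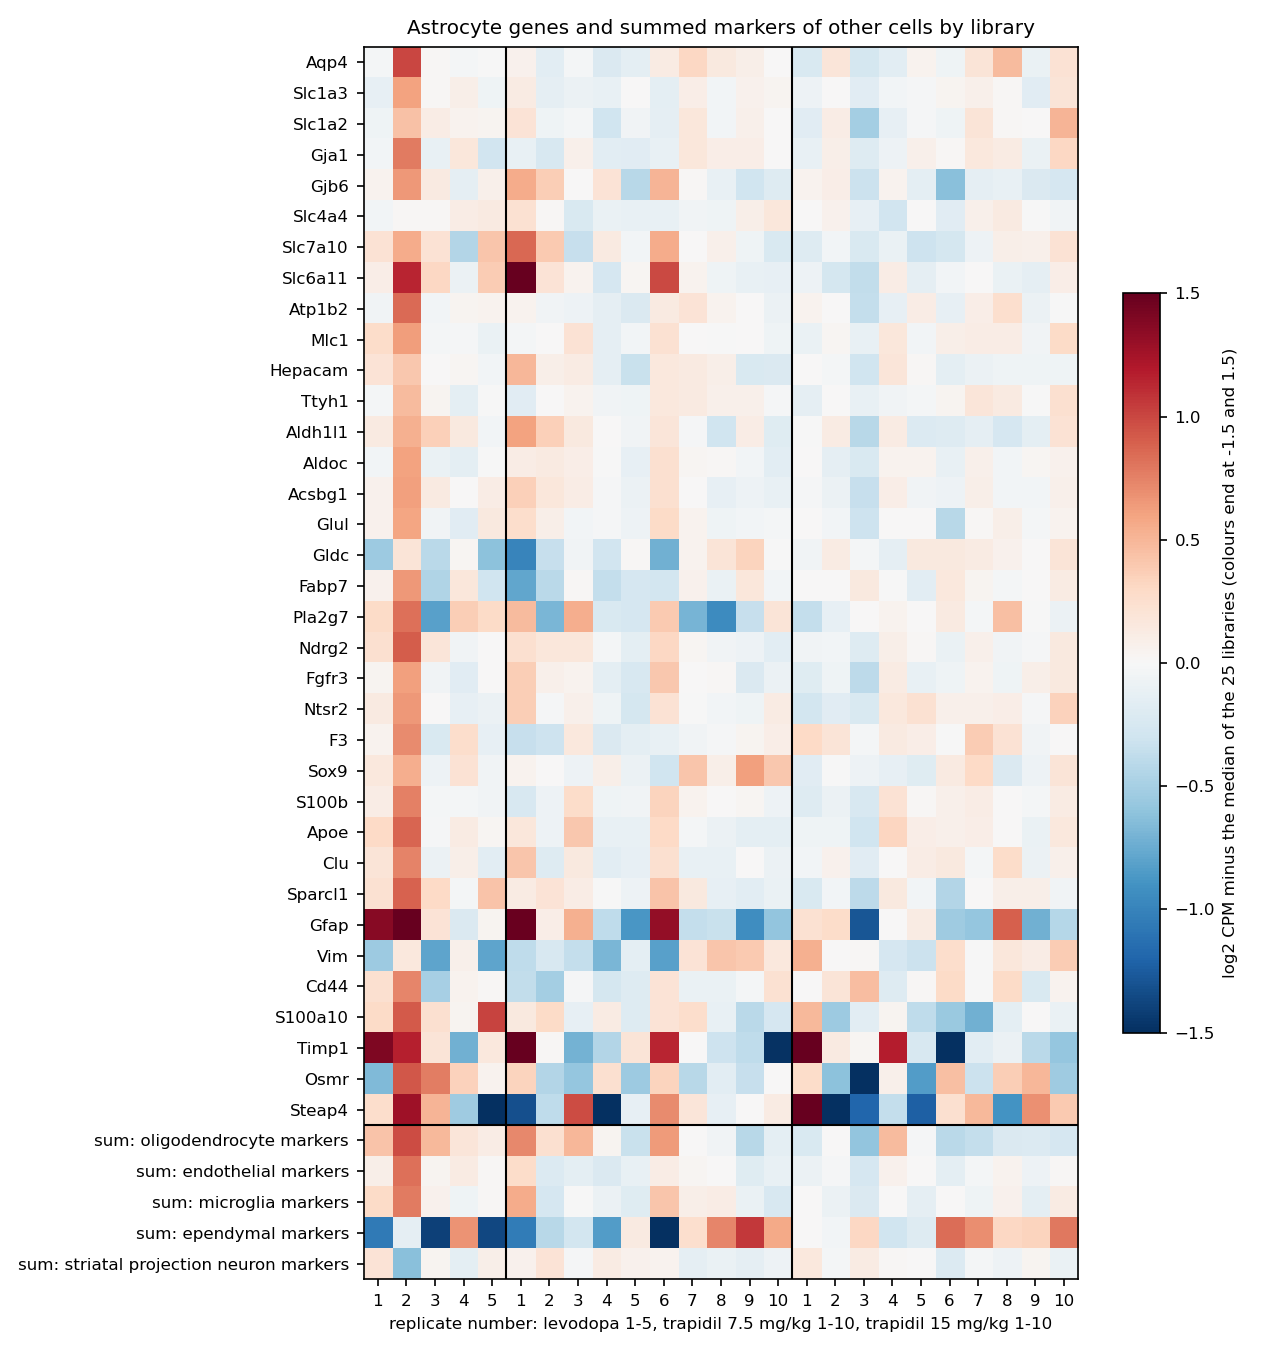
Rows are the 35 astrocyte genes and, under the line, the summed markers of 5 other cell types. Columns are the 25 libraries by arm, and colour is log2 CPM minus the row's median over all libraries. The column of levodopa replicate 2, highest of its arm for 32 of 35 genes, is mostly red, and its striatal projection neuron sum is blue.

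At 15 mg/kg trapidil, edgeR called Sparcl1 and S100a10 lower than with levodopa alone, and none of the 35 genes higher. Both edgeR calls ended without levodopa replicate 2 (adjusted p = 0.2 and 0.172). Under limma-voom with library quality weights, Vim and Gldc were called higher as well (adjusted p = 0.0355 and 0.0247). Sparcl1 encodes a secreted matrix glycoprotein through which astrocytes promote synapse formation, and S100a10 encodes the small subunit of the annexin A2 complex, a gene used as a marker of reactive astrocytes. The log2 fold changes were -0.47 ± 0.11 (SE; edgeR adjusted p = 0.038) and -0.72 ± 0.17 (adjusted p = 0.0383). Among all 14142 genes tested, 1.31% were called in this comparison, 1% of them in the lower and 0.304% in the higher direction. At 7.5 mg/kg 0 of the 35 genes passed with edgeR, where 0.0283% of all genes did. At an unadjusted p below 0.05, 5 of the 35 were lower and 0 higher at 7.5 mg/kg, against 6.64% lower and 5.02% higher among all genes. At the higher dose 9 were lower and 1 higher at that level, against 11.2% and 8.26% of all genes. DESeq2 and limma-voom also called 0 of the 35 at 7.5 mg/kg.

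Most of the fitted values were small and negative at both doses. The median log2 fold change was -0.16 at 7.5 mg/kg and -0.18 at 15 mg/kg, with 33 of 35 values negative in each, beside medians of 0.00 over all genes tested. Both comparisons use the same 5 levodopa libraries, so their likeness is no second observation. Without levodopa replicate 2 the medians were 0.00 with 19 of 35 negative at 7.5 mg/kg, and -0.01 with 18 of 35 negative at 15 mg/kg, and 0 genes passed at either dose with edgeR. At an unadjusted p below 0.05 that fit gave 1 lower and 0 higher gene at 7.5 mg/kg and 2 lower and 2 higher genes at 15 mg/kg. The shares of all genes in that fit are not given here, so its counts are not read against all genes. No gene of the 35 had levodopa and trapidil ranges that did not overlap. Among all genes such a separation was found for 0.0636% lower and 0.0283% higher at 7.5 mg/kg and for 0.41% lower and 0.297% higher at 15 mg/kg.

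**Figure D2:**
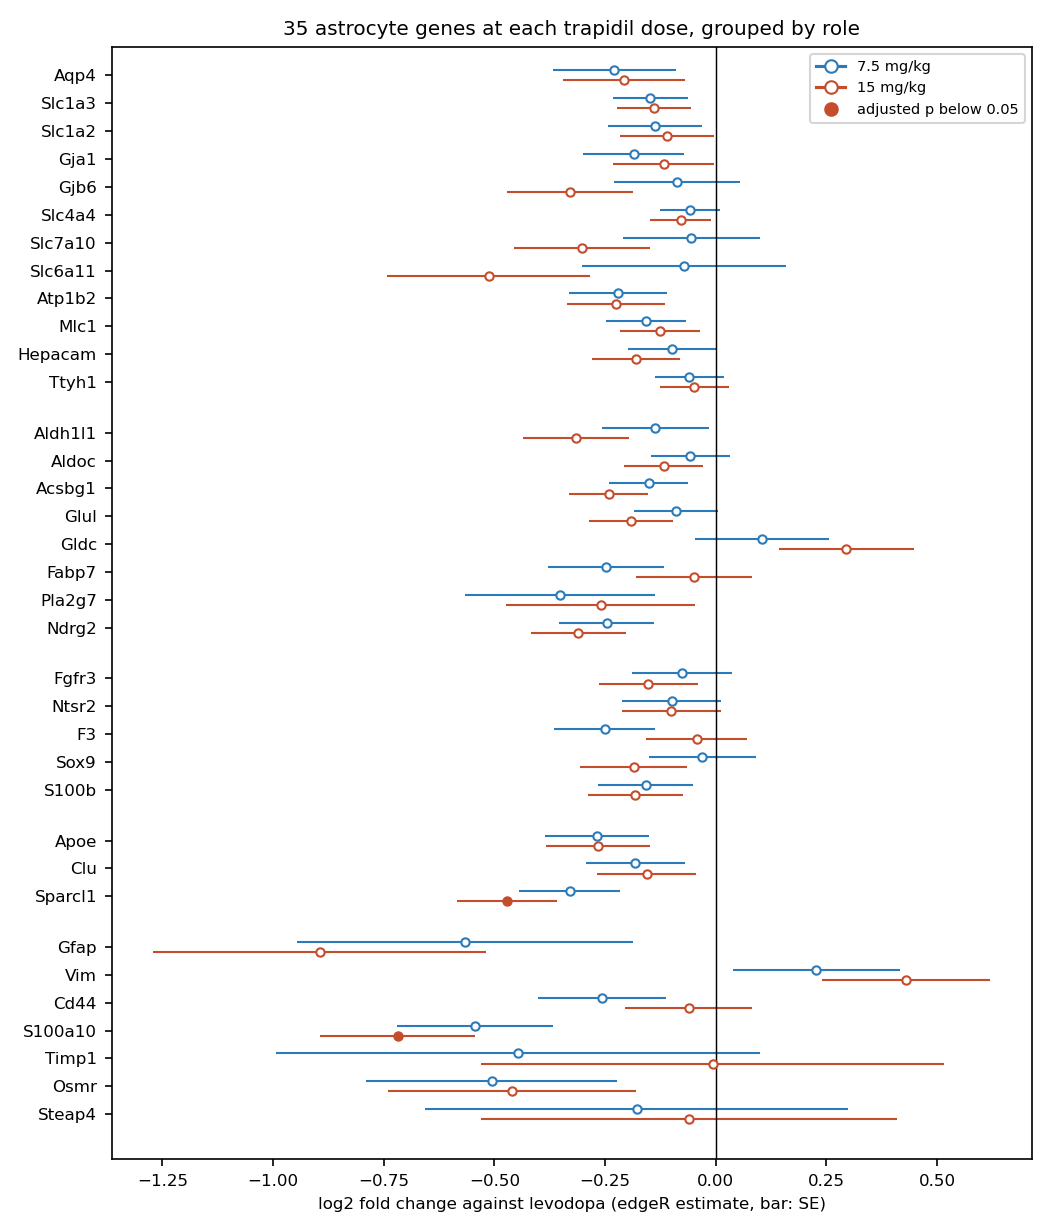
Log2 fold change against levodopa for the 35 genes in role order (channels and transporters, metabolic enzymes, receptors and regulators, secreted proteins, reactive genes), with 7.5 mg/kg in blue and 15 mg/kg in red. Bars are the SE of the edgeR estimate and filled points mark an adjusted p below 0.05, which only Sparcl1 and S100a10 at 15 mg/kg have, and 33 of 35 points lie left of 0 at each dose.

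**Figure D3:**
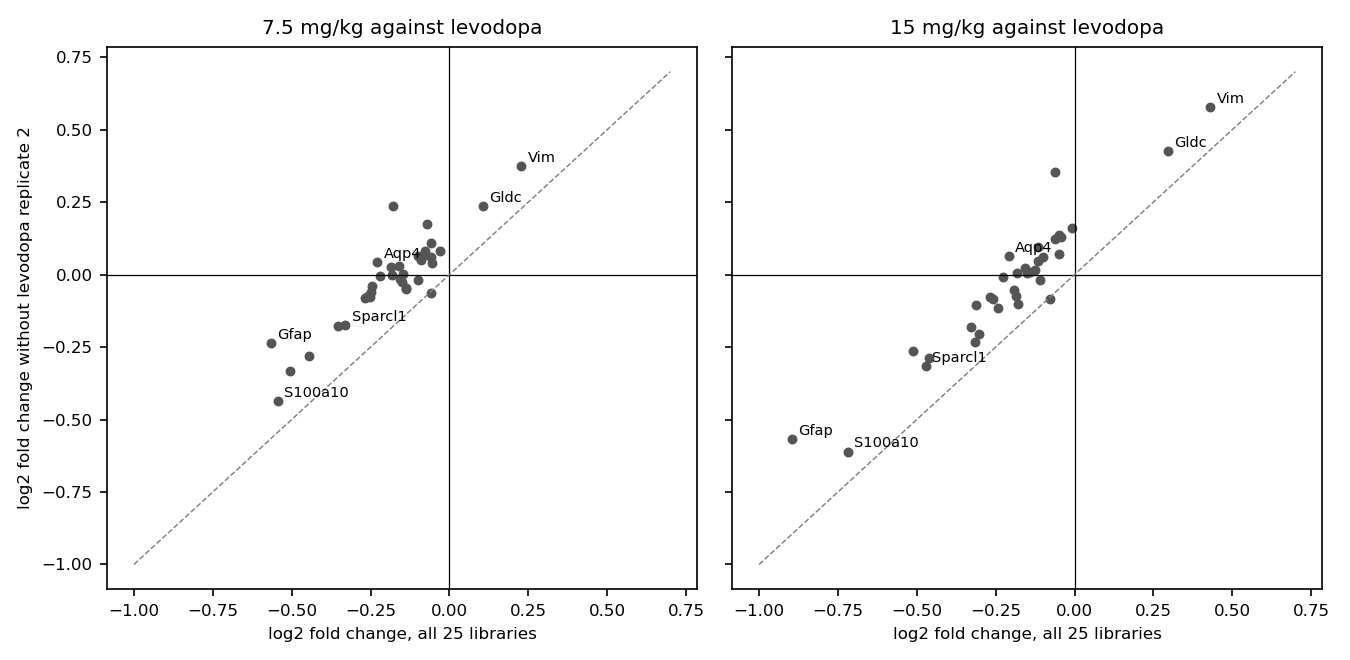
Each point is 1 of the 35 genes, with the log2 fold change from all 25 libraries on the horizontal axis and the value without levodopa replicate 2 on the vertical axis; the dashed line marks equal values. Most points lie above the line, and the median at 15 mg/kg moves from -0.18 to -0.01.

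The upstream sequence is shown for 4 genes that the results turn on: Sparcl1, called lower, Gfap, with the lowest fitted value at 15 mg/kg, and Vim and Gldc, the 2 genes with positive values at both doses. Each is the 250 bases before the annotated start, 5′ to 3′ on the gene's strand, from RefSeq on the GRCr8 build, and capitals mark TTGGC or its reverse complement GCCAA, the short motif bound by nuclear factor I (NFI), a transcription factor of astrocyte development. The positions are chr14:5937234-5937483 (plus strand) for Sparcl1, chr10:88361662-88361911 (minus strand) for Gfap, chr17:81577011-81577260 (plus strand) for Vim and chr1:237375605-237375854 (minus strand) for Gldc.
Sparcl1: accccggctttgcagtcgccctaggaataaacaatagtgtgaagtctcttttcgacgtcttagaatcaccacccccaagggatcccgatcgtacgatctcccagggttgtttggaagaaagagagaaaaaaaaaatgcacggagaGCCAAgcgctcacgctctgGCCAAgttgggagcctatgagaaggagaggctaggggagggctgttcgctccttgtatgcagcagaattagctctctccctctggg
Gfap: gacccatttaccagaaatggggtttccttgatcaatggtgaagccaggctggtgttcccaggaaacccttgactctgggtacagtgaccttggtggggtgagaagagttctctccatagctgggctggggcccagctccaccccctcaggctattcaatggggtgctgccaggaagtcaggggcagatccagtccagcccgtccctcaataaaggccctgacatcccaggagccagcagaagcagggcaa
Vim: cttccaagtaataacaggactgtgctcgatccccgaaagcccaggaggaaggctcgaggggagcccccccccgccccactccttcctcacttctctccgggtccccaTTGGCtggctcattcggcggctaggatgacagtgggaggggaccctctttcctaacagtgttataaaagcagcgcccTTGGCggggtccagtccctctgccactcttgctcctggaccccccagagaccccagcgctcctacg
Gldc: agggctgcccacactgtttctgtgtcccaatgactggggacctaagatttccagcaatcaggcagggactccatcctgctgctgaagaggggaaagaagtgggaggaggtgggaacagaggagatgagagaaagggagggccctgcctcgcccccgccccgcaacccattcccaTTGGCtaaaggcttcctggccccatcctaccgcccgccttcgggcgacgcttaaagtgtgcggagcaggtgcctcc
Sparcl1 and Vim each hold 2 matches, Gldc 1 and Gfap 0. The Gfap window holds 1 CG dinucleotide, against 11 in Sparcl1, 11 in Vim and 9 in Gldc. Of the 35 genes, 31 had an upstream window among the RefSeq sequences used here, with 41 windows in all, and S100a10 had none. The NFI motif was held on either strand by 24 of the 41, against 40.3% of 33469 windows of the same length. The STAT motif TTCNNNGAA occurred in 3 of the 41 (Acsbg1, Ntsr2 and Steap4), against 7.67% of all windows. The AP-1 motif TGANTCA occurred in 3 (Gja1, Osmr and Pla2g7), against 6.34%. The NFI motif was added after the data had been seen, and windows of the same gene can overlap, so these shares are a description only.

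Sparcl1, the first of 3 secreted proteins, was at 1597, 2519, 1679, 1341 and 1832 CPM in levodopa replicates 1 to 5. It ran from 1221 to 1829 CPM (median 1415) at 7.5 mg/kg and from 1003 to 1508 CPM (median 1326) at 15 mg/kg. All 10 libraries at 15 mg/kg lay below the levodopa mean and 6 below the lowest levodopa library, but the ranges overlapped. The log2 fold change at 7.5 mg/kg was -0.33 ± 0.11 (adjusted p = 0.296). Without levodopa replicate 2, the highest library of all 25, Sparcl1 at 15 mg/kg was -0.31 ± 0.10 (adjusted p = 0.2). Its call also ended without levodopa replicate 3 or 5, or without any 1 of 15 mg/kg replicates 1, 2, 3, 6, 7, 9 and 10, with values from -0.49 to -0.44 and adjusted p from 0.0504 to 0.0706.

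Apoe, the main lipid carrier of the brain, was at 3919, 5830, 3150, 3458 and 3245 CPM in the levodopa replicates. At 7.5 mg/kg it ran from 2881 to 4204 CPM (median 3012) and at 15 mg/kg from 2592 to 3998 CPM (median 3277). Only replicate 2 lay above all trapidil libraries. The log2 fold change of Apoe at 15 mg/kg was -0.27 ± 0.12 (adjusted p = 0.206), and -0.08 ± 0.10 without that library. Clu, which encodes the chaperone and lipoprotein component clusterin, was at 864, 1263, 711, 802 and 677 CPM with levodopa, from 656 to 1005 (median 704) at 7.5 mg/kg and from 672 to 913 (median 771) at 15 mg/kg. The value of Clu at 15 mg/kg was -0.16 ± 0.11 (adjusted p = 0.461), again with 1 levodopa library above the rest. The 3 secreted genes had medians of -0.27 at each dose.

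**Figure D4:**
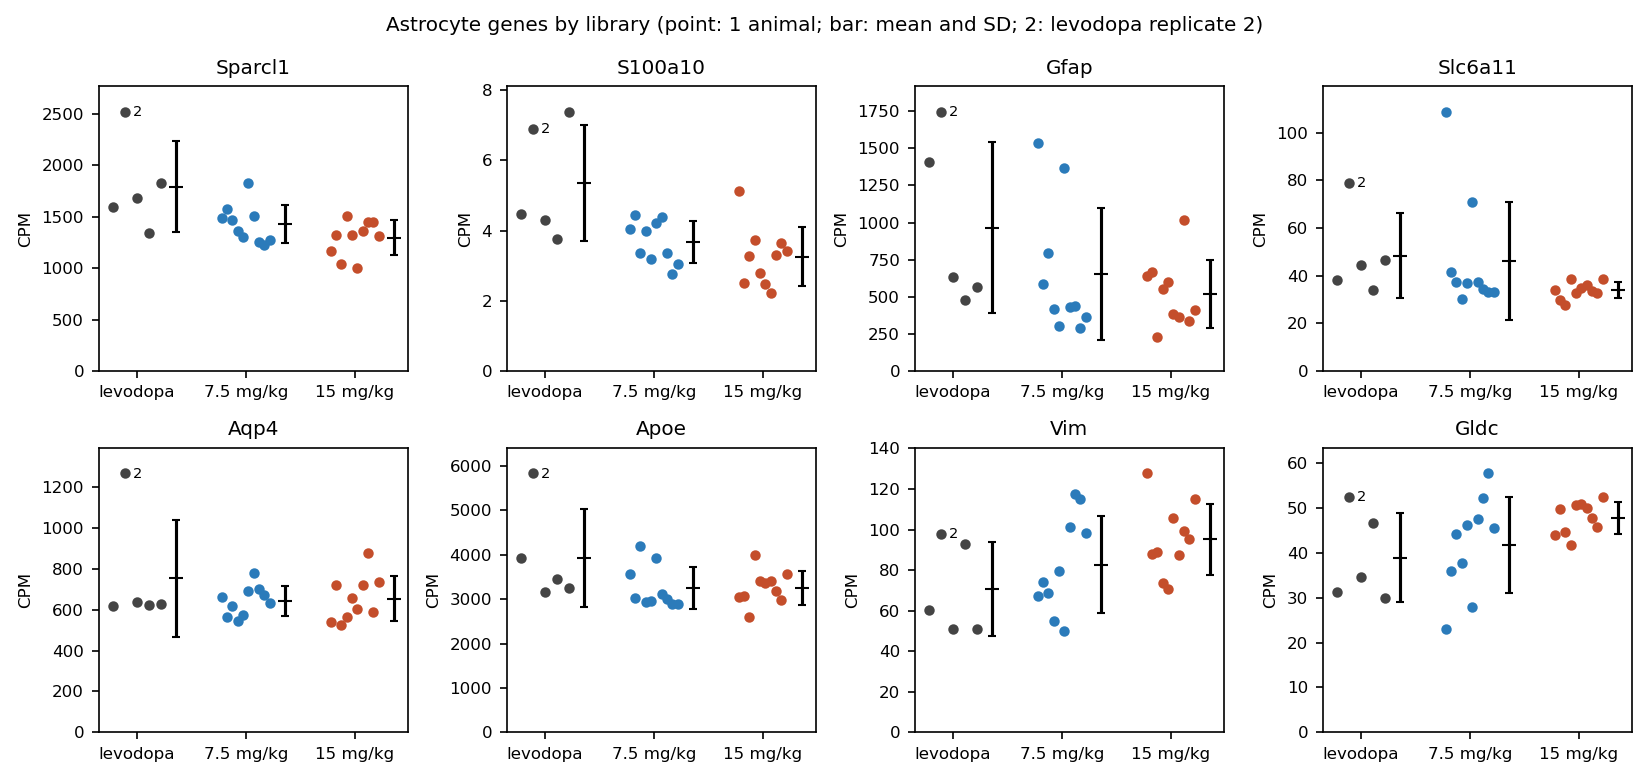
CPM on linear axes from 0 for 8 of the genes; each point is a library, the bar is the arm's mean with its SD, and the number 2 marks levodopa replicate 2. For Aqp4 that library sits at 1266 CPM while the other 4 lie between 618 and 637 CPM, and for S100a10 replicate 5 is the highest at 7.38 CPM.

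Among reactive genes S100a10 was called. Its levodopa values were 4.46, 6.91, 4.30, 3.75 and 7.38 CPM. It ran from 2.75 to 4.46 CPM (median 3.68) at 7.5 mg/kg and from 2.22 to 5.12 CPM (median 3.29) at 15 mg/kg. These levels rest on 35 to 139 reads per library. In both trapidil arms all 10 libraries lay below the levodopa mean, and at 15 mg/kg 9 of 10 lay below the lowest levodopa library, the exception being replicate 1. The log2 fold change at 7.5 mg/kg was -0.54 ± 0.18 (adjusted p = 0.262). In the mean of both doses S100a10 was the only one of the 35 called, at -0.63 ± 0.16 (adjusted p = 0.0498), where 0.806% of all genes were called, 0.665% in the lower direction, and Sparcl1 was at -0.40 ± 0.10 (adjusted p = 0.0534). Without levodopa replicate 2 the S100a10 value at 15 mg/kg was -0.61 ± 0.18 (adjusted p = 0.172) and without replicate 5 it was -0.57 ± 0.18 (adjusted p = 0.0836). Its call at 15 mg/kg ended too without levodopa replicate 3 or any 1 of 15 mg/kg replicates 2, 3 and 5 to 10, with values from -0.79 to -0.67 and adjusted p from 0.0524 to 0.0677. The call in the mean of both doses ended without levodopa replicate 1, 2, 3 or 5, 7.5 mg/kg replicate 2 to 5 or 7 to 10, or 15 mg/kg replicate 2, 3 or 5 to 10, with values from -0.70 to -0.48 and adjusted p from 0.055 to 0.276.

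Gfap, the intermediate filament of astrocytes and the usual measure of their reaction, varied widely within every arm. It was at 1411, 1746, 634, 475 and 566 CPM in the levodopa replicates, from 288 to 1535 CPM (median 433) at 7.5 mg/kg and from 226 to 1020 CPM (median 480) at 15 mg/kg. In the levodopa arm replicates 1 and 2 were high, but only replicate 2 lay above every trapidil library; replicate 1 lay within the 7.5 mg/kg range and the other 3 within the ranges of both trapidil arms. At 7.5 mg/kg replicates 1 and 6, at 1535 and 1366 CPM, stood above the other 8, which lay between 288 and 797 CPM. The log2 fold changes of Gfap were -0.57 ± 0.38 (adjusted p = 0.567) and -0.89 ± 0.38 (adjusted p = 0.187) at the lower and higher dose. Without levodopa replicate 2 they were -0.24 ± 0.40 and -0.57 ± 0.39.

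Vim, which encodes vimentin, had positive fitted values. It was at 60.6, 98.0, 51.1, 93.0 and 50.8 CPM with levodopa, from 50.1 to 117 CPM (median 76.9) at 7.5 mg/kg and from 70.5 to 128 CPM (median 92.3) at 15 mg/kg. In the levodopa arm replicates 2 and 4 were high and 3 libraries lay below every 15 mg/kg library. Its log2 fold change was 0.23 ± 0.19 (adjusted p = 0.65) at 7.5 mg/kg and 0.43 ± 0.19 (adjusted p = 0.206) at 15 mg/kg. Under limma-voom with library quality weights the latter was 0.65 ± 0.18 (adjusted p = 0.0355). Gfap and Vim, the 2 filament genes, thus had fitted values of opposite sign, and neither passed with edgeR.

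The other 4 reactive genes did not pass. Cd44, the receptor of the matrix sugar hyaluronan, had log2 fold changes of -0.26 ± 0.14 and -0.06 ± 0.14 at 7.5 and 15 mg/kg. Osmr, the receptor of oncostatin M in the interleukin-6 family, had values of -0.51 ± 0.28 and -0.46 ± 0.28 on 4 to 27 reads per library. Timp1, an inhibitor of matrix metalloproteinases, had values of -0.45 ± 0.55 and -0.01 ± 0.52 on 3 to 57 reads, and Steap4, a metalloreductase, values of -0.18 ± 0.48 and -0.06 ± 0.47 on 2 to 24 reads. Timp1, Steap4 and S100a10 were each highest of their arm in 15 mg/kg replicate 1, at 3.56, 1.499 and 5.12 CPM. Lcn2, an acute-phase protein of reactive astrocytes that was named after its values were seen, was at 14.6 CPM in that library and from 0.256 to 1.17 CPM in the other 9 of the arm. Over the 7 reactive genes the median log2 fold change was -0.45 at 7.5 mg/kg and -0.06 at 15 mg/kg, with 6 negative at each.

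None of the 12 channels, transporters and junction proteins passed at either dose, and all 12 fitted values were negative, with medians of -0.12 and -0.16. Slc6a11, the GABA transporter GAT-3, was at 38.3, 78.9, 44.3, 33.8 and 46.6 CPM with levodopa, from 30.2 to 109 CPM (median 36.9) at 7.5 mg/kg and from 27.7 to 38.8 CPM (median 33.8) at 15 mg/kg. The high 7.5 mg/kg libraries were replicates 1 and 6, the same that were high for Gfap, at 109 and 71.0 CPM. Its log2 fold change was -0.07 ± 0.23 at 7.5 mg/kg and -0.51 ± 0.23 (adjusted p = 0.21) at 15 mg/kg, where all 10 libraries lay below the levodopa mean and 5 below the lowest levodopa library. Gjb6, the gap junction protein connexin 30, was at 30.8, 46.6, 32.5, 27.0 and 31.2 CPM with levodopa, from 22.3 to 43.5 (median 29.8) at 7.5 mg/kg and from 19.1 to 31.8 (median 26.9) at 15 mg/kg. At the higher dose the log2 fold change was -0.33 ± 0.14 (adjusted p = 0.198). Its levodopa range overlapped both trapidil ranges.

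Atp1b2, a sodium pump subunit, was at 439, 823, 443, 470 and 475 CPM with levodopa, from 393 to 527 (median 449) at 7.5 mg/kg and from 355 to 541 (median 455) at 15 mg/kg. Its log2 fold change at 15 mg/kg was -0.23 ± 0.11 (adjusted p = 0.258), and 4 of the 5 levodopa libraries lay within the 15 mg/kg range. Aqp4, the water channel of astrocyte endfeet, was at 1266 CPM in levodopa replicate 2 and 626 ± 8.67 CPM (SD, n = 4) in the other 4 libraries of that arm. Its log2 fold change at 15 mg/kg was -0.21 ± 0.14 with all libraries and 0.06 ± 0.10 without that one. The glutamate transporters Slc1a3 (GLAST) and Slc1a2 (GLT-1) were at -0.14 ± 0.08 and -0.11 ± 0.11, connexin 43 (Gja1) at -0.12 ± 0.11 and the bicarbonate transporter Slc4a4 at -0.08 ± 0.07. Slc7a10, an amino acid exchanger, was at -0.30 ± 0.15, Mlc1 and Hepacam, partners in an endfoot membrane complex, at -0.13 ± 0.09 and -0.18 ± 0.10, and Ttyh1, of the tweety family, at -0.05 ± 0.08. The adjusted p of these 8 at 15 mg/kg ran from 0.276 for Slc7a10 to 0.783 for Ttyh1.

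Of the 8 metabolic and lipid enzymes 0 passed at either dose, with median log2 fold changes of -0.14 and -0.22. Ndrg2, a hydrolase-fold protein of astrocytes, was at 1069, 1700, 1027, 877 and 906 CPM with levodopa, from 813 to 1127 (median 905) at 7.5 mg/kg and from 791 to 1000 (median 885) at 15 mg/kg. The log2 fold change of Ndrg2 at 15 mg/kg was -0.31 ± 0.11 (adjusted p = 0.108). Ndrg2 passed when levodopa replicate 4 was left out (-0.39 ± 0.11, adjusted p = 0.0372) and was at -0.11 ± 0.08 when replicate 2 was. Aldh1l1, the folate enzyme used as a general astrocyte marker, was at 13.002, 17.1, 15.2, 13.1 and 11.5 CPM with levodopa, from 9.64 to 17.97 (median 12.3) at 7.5 mg/kg and from 8.90 to 13.8 (median 10.7) at 15 mg/kg, and the log2 fold change there was -0.32 ± 0.12 (adjusted p = 0.142). Of the 10 libraries at that dose 6 lay below the lowest levodopa library.

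Acsbg1, an acyl-CoA synthetase, was at 200, 293, 210, 192 and 206 CPM with levodopa, from 175 to 245 (median 189) at 7.5 mg/kg and from 150 to 203 (median 185) at 15 mg/kg. Acsbg1 had a log2 fold change of -0.24 ± 0.09 at 15 mg/kg (adjusted p = 0.132), with 7 of 10 libraries below the lowest levodopa library. Gldc, the glycine cleavage enzyme, was the 1 gene of this group with positive values. It was at 31.2, 52.4, 34.5, 46.5 and 29.9 CPM with levodopa, from 23.0 to 57.6 (median 44.8) at 7.5 mg/kg and from 41.7 to 52.3 (median 48.8) at 15 mg/kg, and levodopa replicates 2 and 4 were high as for Vim. The log2 fold change of Gldc at 15 mg/kg was 0.29 ± 0.15 (adjusted p = 0.286), and 0.45 ± 0.12 (adjusted p = 0.0247) under limma-voom with quality weights. The glycolytic enzyme Aldoc, glutamine synthetase (Glul), the fatty acid binding protein Fabp7 and the phospholipase Pla2g7 had values of -0.12 ± 0.09, -0.19 ± 0.10, -0.05 ± 0.13 and -0.26 ± 0.21 at 15 mg/kg.

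The 5 receptors, surface and regulatory proteins gave 0 calls and medians of -0.10 and -0.15. S100b, a calcium-binding protein, was at 1156, 1805, 1049, 1048 and 1031 CPM with levodopa, from 904 to 1345 (median 1053) at 7.5 mg/kg and from 904 to 1245 (median 1077) at 15 mg/kg. Sox9, the transcription factor of astrocyte fate, was at 31.3, 40.9, 26.7, 32.5 and 26.9 CPM, from 22.8 to 43.0 (median 29.4) and from 24.2 to 34.6 (median 26.6) in the same order. Fgfr3, a fibroblast growth factor receptor, was at 87.8, 130 (replicate 2), 82.4, 75.6 and 85.2 CPM, from 72.1 to 112 (median 85.9) and from 64.8 to 94.3 (median 81.7). For all 3 the trapidil medians lay within the range of the 4 other levodopa libraries or just below it. Their log2 fold changes at 15 mg/kg were -0.18 ± 0.11, -0.19 ± 0.12 and -0.15 ± 0.11, with adjusted p from 0.353 to 0.476. The neurotensin receptor Ntsr2 was at -0.10 ± 0.11 and F3, which encodes tissue factor, at -0.04 ± 0.11.

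The 2 trapidil doses were not separated by any of the genes. Between 15 and 7.5 mg/kg 0 of 35 passed with edgeR, where 0.0283% of all genes did, and at an unadjusted p below 0.05 there was 1 gene in each direction, F3 higher (0.21 ± 0.09) and Slc6a11 lower (-0.44 ± 0.19), against 1.49% higher and 2.14% lower among all genes. DESeq2 and limma-voom called 0 as well. The median log2 difference was 0.00 with 18 of 35 negative. The difference was -0.14 ± 0.09 for Sparcl1 and -0.18 ± 0.15 for S100a10.

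Lists of the same pathways, drawn up beside the 35 genes, gave 0 calls with edgeR in any of the 4 comparisons. Of 35 further astrocyte genes tested, 8 were lower and 3 higher at an unadjusted p below 0.05 at 15 mg/kg, with a median of -0.12, beside 11.2% lower and 8.26% higher among all genes. Crym, which binds thyroid hormone, had the smallest p, at 0.65 ± 0.18 (adjusted p = 0.063). Its level was 90.0 ± 28.0 CPM (SD, n = 5) in the levodopa arm, and at the higher dose it was 142 ± 23.9 CPM (SD, n = 10). Of 25 further reactive genes 8 were lower and 2 higher at that level, against the same shares of all genes, and Srgn, which encodes the proteoglycan serglycin, was at -0.43 ± 0.12 (adjusted p = 0.0584). Of 12 tested genes of interleukin-6 family signalling 4 were lower and 0 higher, where all genes again gave 11.2% and 8.26%, and its receptor Il6r was at -0.35 ± 0.12 (adjusted p = 0.103). The 9 tested genes around the annexin A2 complex and the S100 family, partners or relatives of S100a10, all had negative values at both doses, with medians of -0.19 and -0.21. Ahnak, a large scaffold protein that binds the complex, came nearest at -0.42 ± 0.19 (adjusted p = 0.22). The values of this list were not taken as independent of those of the 35 genes.

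Markers of several other cells also had mostly negative values at 15 mg/kg. Beside their counts, 1% of all genes tested were called lower and 0.304% higher at this dose. At an unadjusted p below 0.05, 11.2% of all genes were lower and 8.26% higher. Of 10 endothelial markers tested all were negative (median log2 fold change -0.38) and 2 were called lower, and of 7 oligodendrocyte precursor markers all were negative (median -0.38) and 1 was called lower. Of 12 microglia markers 11 were negative (median -0.31), with 0 called by edgeR and 7 lower at an unadjusted p below 0.05. The 13 striatal projection neuron markers had a median of 0.09, with 11 positive and 0 called by edgeR, where 1 was higher at that level. Levodopa replicate 2 is part of these fits. Its endothelial, microglia and oligodendrocyte precursor sums were 1.70, 1.67 and 1.68 times those of the other levodopa libraries. Its striatal projection neuron sum was 0.618 times theirs. Without that library the levodopa ranges of all these sums still overlapped those at 15 mg/kg. How much of the marker medians rests on replicate 2 was not tested. The part of these other cells in the values of the 35 genes was not tested. The summed level of 13 oligodendrocyte markers ran from 11115 to 20252 CPM with levodopa (median 13792), from 7691 to 16891 (median 10418) at 7.5 mg/kg and from 6814 to 14282 (median 8811) at 15 mg/kg. No gene of this sum was at 0 in all libraries of an arm, and 7 of 13 were called lower at 15 mg/kg. With that sum as a covariate, chosen after seeing the data, the 35 genes had a median of 0.03 with 14 negative at 15 mg/kg and 0 passed. Sparcl1 was then at -0.17 ± 0.10 (adjusted p = 0.734), S100a10 at -0.53 ± 0.21 (adjusted p = 0.546) and Gfap, with its sign turned, at 0.39 ± 0.29 (adjusted p = 0.799). The covariate is itself lower with trapidil, so it shares its variation with the arm. The sum of 10 cortical neuron markers was 85.5 and 61.3 CPM in 7.5 mg/kg replicates 1 and 6, the libraries high for Gfap and Slc6a11, against an arm median of 31.0 CPM. Their oligodendrocyte sums were 1.64 and 1.55 times the median of the other libraries of the arm. The values were 1.67 and 1.57 for oligodendrocyte precursors, 1.56 and 1.42 for microglia and 1.54 and 1.52 for leptomeningeal fibroblasts. Ependymal sums were lower, at 0.441 and 0.323 times, as were choroid plexus sums, at 0.80 and 0.738 times. In the levodopa arm replicates 5 and 2 had the highest cortical sums, at 72.2 and 48.6 CPM. They also had the highest Slc6a11 of that arm, at 46.6 and 78.9 CPM. Gfap was mixed: it was at 566 CPM in replicate 5 and highest in replicate 2, at 1746 CPM. Replicate 1 had a cortical sum of 30.1 CPM with Gfap at 1411 CPM. The part of cortical tissue, or of the other cells, in the Gfap and Slc6a11 values was not tested.

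Ependymal cells line the ventricle beside the striatum and express Vim. Vim and Gldc were set beside their markers after the values were seen. The summed level of 11 ependymal markers ran from 30.1 to 126 CPM with levodopa (median 37.9), from 28.0 to 165 (median 76.0) at 7.5 mg/kg and from 64.3 to 141 (median 98.4) at 15 mg/kg. No gene of this sum was at 0 in all libraries of an arm. At 15 mg/kg 0 of 10 tested were called with edgeR, where 1.31% of all genes were. At an unadjusted p below 0.05, 5 of the 10 were higher, against 8.26% of all genes. With this sum as a covariate Vim was at 0.04 ± 0.11 (adjusted p = 0.889) and Gldc at -0.02 ± 0.10 (adjusted p = 0.951) at 15 mg/kg. Sparcl1 was at -0.35 ± 0.12 (adjusted p = 0.171) and S100a10 at -0.53 ± 0.18 (adjusted p = 0.191) in the same fit, with 0 of the 35 called. The ependymal sum is itself higher with trapidil, so this covariate too shares its variation with the arm. The part of ependymal cells in the values of Vim and Gldc was not tested.

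Within the trapidil arms 8 relations between a gene and a marker sum were computed across the 10 libraries on log2 CPM, all chosen after seeing the data. At 7.5 mg/kg Vim followed the ependymal sum, with Pearson's r = 0.948 (permutation test, p = 8e-05, adjusted p = 0.00064) and Spearman's rho = 0.952 (p = 0.00018, adjusted p = 0.0008), and r = 0.908 without the 2 libraries farthest from the median sum. At 15 mg/kg r was 0.52 (p = 0.126, adjusted p = 0.144), rho 0.576 (p = 0.0886, adjusted p = 0.101) and r 0.327 without the 2 farthest. Gldc showed the same pattern, with r = 0.903 (p = 0.00034, adjusted p = 0.00136), rho = 0.939 (p = 0.0002, adjusted p = 0.0008) and 0.85 without 2 libraries at 7.5 mg/kg. At 15 mg/kg its r was 0.568 (p = 0.0871, adjusted p = 0.116), rho 0.6 (p = 0.0742, adjusted p = 0.0989) and r 0.28 without the 2 farthest.

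Sparcl1 followed the oligodendrocyte sum at 7.5 mg/kg, with r = 0.792 (permutation test, p = 0.00678, adjusted p = 0.0181), rho = 0.782 (p = 0.0105, adjusted p = 0.028) and r = 0.762 without the 2 farthest libraries. At 15 mg/kg its r was 0.674 (p = 0.0131, adjusted p = 0.0262) and rho 0.697 (p = 0.0298, adjusted p = 0.0596). Without the 2 farthest libraries r fell to 0.436, and this drop was not tested. For S100a10 the values were r = 0.623 (p = 0.0563, adjusted p = 0.0901) and rho = 0.673 (p = 0.0379, adjusted p = 0.0606), with r = 0.541 without 2 libraries, at 7.5 mg/kg. They were r = 0.187 (p = 0.59, adjusted p = 0.59) and rho = 0.345 (p = 0.331, adjusted p = 0.331), with r = 0.0656 without 2 libraries, at 15 mg/kg. Points of a relation share a library and its scaling.

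**Figure D5:**
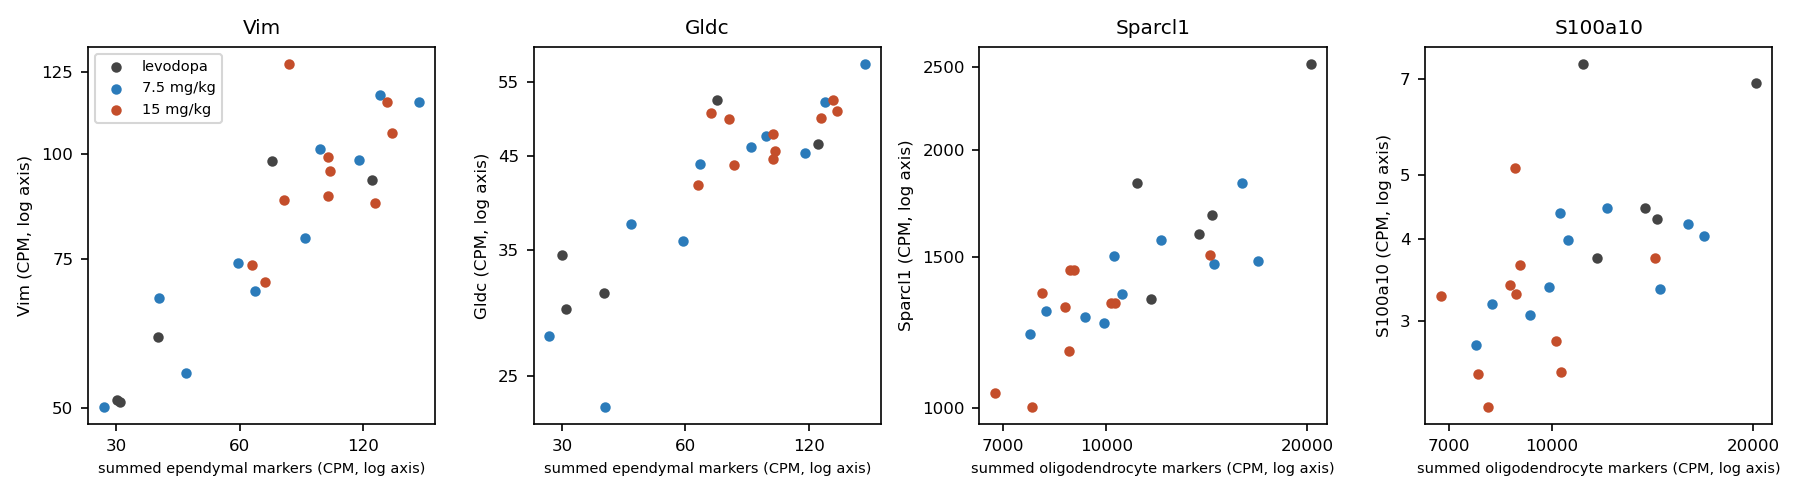
Level of 4 genes against the summed level of ependymal markers (Vim, Gldc) or oligodendrocyte markers (Sparcl1, S100a10), in CPM on log axes, with 1 point per library coloured by arm. Vim and Gldc rise with the ependymal sum at 7.5 mg/kg (r of 0.948 and 0.903), while the 2 highest S100a10 points are levodopa libraries at 6.91 and 7.38 CPM.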

How the data were processed

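Polyadenylated RNA of the ipsilateral striatum of 25 rats was sequenced in 25 libraries, each taken as 1 animal. The deposited file, made by the authors, is 1 table of raw read counts for 28909 gene names. Per the submitters' processing notes FastQC, STAR and HTSeq were used with the Rnor_6.0 build. Tool versions, annotation and strand setting are not given in the sources used here, and reads of overlapping or antisense genes cannot be told apart.

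edgeR 4.0.16 (R 4.3.3) kept 14142 genes with filterByExpr, scaled libraries by TMM and fitted the quasi-likelihood test to all 25 libraries with arm as factor (common biological coefficient of variation 0.139). Two-sided contrasts compared each dose with levodopa, 15 with 7.5 mg/kg, and the average of the doses with levodopa, Benjamini-Hochberg adjusted over all genes (threshold 0.05). Adjusted p-values come from this test where neither another tool nor the permutation test (100000 resamples, scipy 1.17.1) is named. Log2 fold changes carry their SE. The fit pools the spread of the arms. Over the 35 genes the median coefficient of variation was highest with levodopa (27.3%), but it was 11.2% there without replicate 2. It was 14.9% at 7.5 mg/kg and 11.3% at 15 mg/kg. No library pair of an arm agreed within sampling noise (lowest chi-square per degree of freedom 4.83). The same steps were run on simulated counts, and the outcome is not given here. No simulated library was set apart as levodopa replicate 2 was. The run therefore cannot show how calls behave with such a library.

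The genes and lists were chosen with earlier results of these data known. All 35 genes are named; values per library are given for genes called in any comparison and for the 3 smallest p at 15 mg/kg in each role group, and of other pathway lists for the gene with the smallest p. Aqp4, Gldc, Lcn2, the relations and both covariates were chosen after their values were seen. Alternatives changed normalization (RLE, upper quartile), filter, threshold (0.10), libraries, tool (DESeq2 1.42.0, limma-voom 3.58.1) and covariates. Promoter windows are RefSeq's on GRCr8, not the build counted on. The labels name no batch, which leaves no comparison within batches.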

Additional observations from a re-analysis of the deposited data

Results flagged for a closer look

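Of 138 groups of 5 or 10 libraries checked (35 genes and the marker sums in each arm), 24 held a library far from the rest of its arm, 19 of them among the 105 groups of the 35 genes. Chance alone gives about 1 in 20 groups, and these groups share libraries, so they are not separate events. Levodopa replicate 2 was the high library for 13 genes: Aqp4 (1265.88 CPM), Slc1a3 (1031.64), Gjb6 (46.576), Slc6a11 (78.9016), Atp1b2 (822.514), Ttyh1 (1179.88), Aldoc (1344.97), Acsbg1 (292.596), Ndrg2 (1700.05), Fgfr3 (130.166), Ntsr2 (165.453), S100b (1804.62) and Apoe (5829.59). The same library was far above its arm for the summed markers of oligodendrocyte precursors (1312.39 CPM), endothelial cells (950.15), leptomeningeal fibroblasts (391.115) and choroid plexus (30.2898).

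In the trapidil arms, 7.5 mg/kg replicate 1 was far above its arm for Slc6a11 (108.647 CPM) and Hepacam (45.0175). At 15 mg/kg replicate 1 was high for S100a10 (5.12124 CPM), Timp1 (3.55989) and Steap4 (1.4989), replicate 4 was high for the oligodendrocyte sum (14282.3) and replicate 3 was low for Acsbg1 (150.064).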

How the results depend on the processing

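The count of 2 of the 35 genes called at 15 mg/kg became 1 with no filter on low counts, 4 with limma-voom and 0 with the replicate number as a block, without levodopa replicate 2 and 7.5 mg/kg replicate 1 together, or with the oligodendrocyte or ependymal sum as covariate. It ran from 0 to 3 when single libraries were left out. For the mean of both doses the count of 1 became 0 with upper quartile scaling, with no filter, with the block, without those 2 libraries and with either covariate, 2 with DESeq2 or a threshold of 0.10, and 4 with limma-voom. It ran from 0 to 3 over single libraries left out. The shares of all genes called in these settings are not given here, so the changes are not read as particular to the 35 genes. Their cause was not tested. At 7.5 mg/kg and between the doses 0 genes passed in every setting run. The 4 genes of limma-voom were Sparcl1 and S100a10, lower, and Vim and Gldc, higher; the third gene called without levodopa replicate 4 was Ndrg2. RLE scaling, the strict filter (at least 1 CPM in 10 libraries) and fitting only the arms compared left the count at 15 mg/kg at 2.

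The labels do not say whether replicate numbers pair animals, and the numbers were not taken as pairs. Deviations of same-numbered libraries correlated over 0.1 in 1 of 5 pairs between 7.5 mg/kg and levodopa (-0.241 to 0.158), 1 of 5 between 15 mg/kg and levodopa (-0.354 to 0.208) and 4 of 10 between the doses (-0.223 to 0.14). With the block Sparcl1 was at -0.46 ± 0.13 (edgeR adjusted p = 0.185) and S100a10 at -0.64 ± 0.22 (adjusted p = 0.23) at 15 mg/kg.

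No called value changed sign in any setting run. Over 5127 recomputed values, 267 that were called in neither fit did, in 88 of the 140 values of genes by comparison. Low counts limit Timp1, Osmr and Steap4, whose libraries hold as few as 2 to 4 reads, and the 5 levodopa libraries limit every comparison with that arm.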
